A study of Mus musculus with 2 samples.

Results

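The genes described here encode the machinery by which a secretory vesicle fuses with the plasma membrane on a calcium signal. Their 43 members form a named list of SNARE proteins, calcium sensors, priming factors, Rab proteins and vesicle proteins, and all 43 were found among the 55536 annotated genes of the tables. The list was divided by textbook knowledge into 30 neuroendocrine members and 13 broadly expressed members. The main known sites of the first are neurons and endocrine cells. The second are paralogs or partners with wider or other known sites, such as exocrine granules for Rab3d, so not all are found in most cells. The class is less certain for Vamp1, Vamp2, Syt7, Syt11, Cadps2, Rab27b and Unc13b. The rule for members names genes and uses no measured value, but the list and its classes were drawn up with earlier results of these data known. Stx4 is listed as Stx4a in the annotation and was matched through its RefSeq synonym.

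Total RNA came from adrenal glands of 2 adult female mice of the strain B6CASTF1/J, aged 8 to 10 months, an F1 hybrid of B6 and CAST parents. Nothing in the labels describes a treatment or a mutation. Replicate 2 is animal 3 and replicate 1 is animal 1, and both form 1 group. Each library was made from 300 ng of RNA. The labels give both animals the same donor code, so the spread between them may be partly technical. Depth was 34319787 expected counts in replicate 2 and 40453707 in replicate 1. Levels are in TPM, a share of all transcripts corrected for transcript length. The deposited interval of each TPM value covers estimation error within 1 library. The SDs below are over the 2 animals. With 2 animals an exact sign-flip test cannot give a two-sided p below 0.5, so no p-values are reported.

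Fusion is driven by SNARE proteins. A vesicle SNARE of the VAMP family zips together with a syntaxin and a SNAP-25 family protein on the plasma membrane. Several but not all synaptotagmins sense calcium, Munc13 and CAPS proteins prime the vesicle, and Rab proteins with their effectors tether it. Chromaffin cells of the adrenal medulla use this machinery to release catecholamine granules, while cells of the cortex secrete steroids without such granules. The medulla marker list was well expressed in both glands. All 10 chromaffin markers reached 1 TPM, with a summed level of 2320 TPM in replicate 2 and 2562 in replicate 1. All 7 cortex markers did so too, with a far larger sum of 27010 TPM in replicate 2 and 25839 in replicate 1. Of 10 neuron markers 3 did so, and their sum was 10.4 TPM in replicate 2 and 11.3 in replicate 1, with Chat at 0 in both. In bulk tissue, fewer cells of a type and less RNA per cell cannot be told apart.

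Snap25 is made with either of 2 alternative versions of exon 5, which lie next to each other in the gene and encode the a and b forms of SNAP-25. The b form prevails in the adult brain, whereas the a form is known from embryos and neuroendocrine cells. The sequences are shown because the gland held similar amounts of the transcripts that carry them. Capitals mark the 31 of 118 bases at which the exons differ. The form was assigned from the spacing of the cysteine codons. The sequences come from the GENCODE M21 transcripts, and both lie on the plus strand of mm10, at chr2:136769743-136769860 for the a form and at chr2:136770057-136770174 for the b form.
Snap25-202, exon 5 of the a form: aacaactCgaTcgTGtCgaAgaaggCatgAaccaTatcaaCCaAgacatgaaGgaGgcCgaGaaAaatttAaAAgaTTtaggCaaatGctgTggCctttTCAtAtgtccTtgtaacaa
Snap25-201, exon 5 of the b form: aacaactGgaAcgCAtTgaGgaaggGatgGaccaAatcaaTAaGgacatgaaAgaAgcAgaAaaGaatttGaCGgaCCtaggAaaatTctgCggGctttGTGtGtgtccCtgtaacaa

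The transcript with the a exon, Snap25-202, held 46.7% of the gene's TPM in replicate 2 and 44.0% in replicate 1. The transcript with the b exon, Snap25-201, held 50.3% in replicate 2 and 54.3% in replicate 1. The b transcript was thus the higher in both animals by the alignment-based table, with a small margin. In the table made from a transcript index the a transcript held 49.9% in replicate 2 and 43.4% in replicate 1, so the order turned in replicate 2. Snap25-201 also has the longer last exon, 1354 bases against 277 bases in Snap25-202, so part of this split rests on reads outside exon 5.

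A stretch resembling RE1, the element bound by the neuronal gene silencer REST, was sought in RefSeq promoters (GRCm38.p6, 250 bases before to 50 bases after a start). The RE1 motif has 21 letters, of which 19 are fixed, and was searched on both strands with up to 3 mismatches. It matched in 3 of the 34 members with a promoter in the table, which were 22 neuroendocrine and 12 broadly expressed ones with 44 promoters together. Of all 32851 promoters, from 27025 genes, 0.0731% matched, so this share is by promoter and the count of members by gene. All 3 members with a match belong to the neuroendocrine class. A match is a description of the letters, and no match in this window says nothing about the factor. The matches are shown in capitals with up to 20 bases on each side, on the strand of the gene. The printed stretch of Syn1 lies at chrX:20921110-20921168, that of Scamp5 at chr9:57468174-57468234 and that of Rph3a at chr5:121009594-121009654, all on the minus strand. In Rph3a the motif runs against the direction of the gene.
Syn1: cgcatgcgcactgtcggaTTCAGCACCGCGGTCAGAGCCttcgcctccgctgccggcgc
Scamp5: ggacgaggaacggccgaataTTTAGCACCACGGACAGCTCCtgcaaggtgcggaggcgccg
Rph3a: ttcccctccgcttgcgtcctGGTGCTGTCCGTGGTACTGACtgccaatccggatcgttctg

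These 3 genes were low in the gland. Syn1, which tethers synaptic vesicles to actin, stood at 3.19 TPM in replicate 2 and 3.06 in replicate 1. Scamp5, a carrier membrane protein of vesicles, stood at 6.67 TPM in replicate 2 and 4.27 in replicate 1. Rph3a, an effector of Rab3, stood at 1.75 TPM in replicate 2 and 1.21 in replicate 1. All 3 lay below the median of 12.2 TPM in replicate 2 and 11.4 in replicate 1 of the 12009 protein-coding genes at 1 TPM or more. The median of the 30 neuroendocrine members was 4.53 TPM, so most of that class also lay below those values. Whether a match goes with the level was not tested. The matches in Syn1 and Scamp5 had 2 mismatches each and that in Rph3a had 3. The full cAMP response element TGACGTCA, which reads the same on both strands, was in promoters of Napa and Syn1. These were 2 of the 34 members with a promoter, and 1.79% of all promoters held the element.

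Most members were transcribed, and the broadly expressed ones were higher. Of the 43 members, 36 reached 1 TPM in both animals, where 54.5% of 22028 protein-coding genes did. At 10 TPM the count was 18, where 28.7% of protein-coding genes passed. The 30 neuroendocrine members had a median of 4.53 ± 0.177 TPM (SD, n = 2), and 23 of them passed 1 TPM and 9 passed 10 TPM. The 13 broadly expressed members had a median of 22.1 ± 1.78 TPM, with all 13 past 1 TPM and 9 past 10 TPM. Summed over members, the neuroendocrine class came to 281 TPM in replicate 2 and 255 in replicate 1, and the smaller broadly expressed class to 369 TPM in replicate 2 and 340 in replicate 1.

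**Figure D1:**
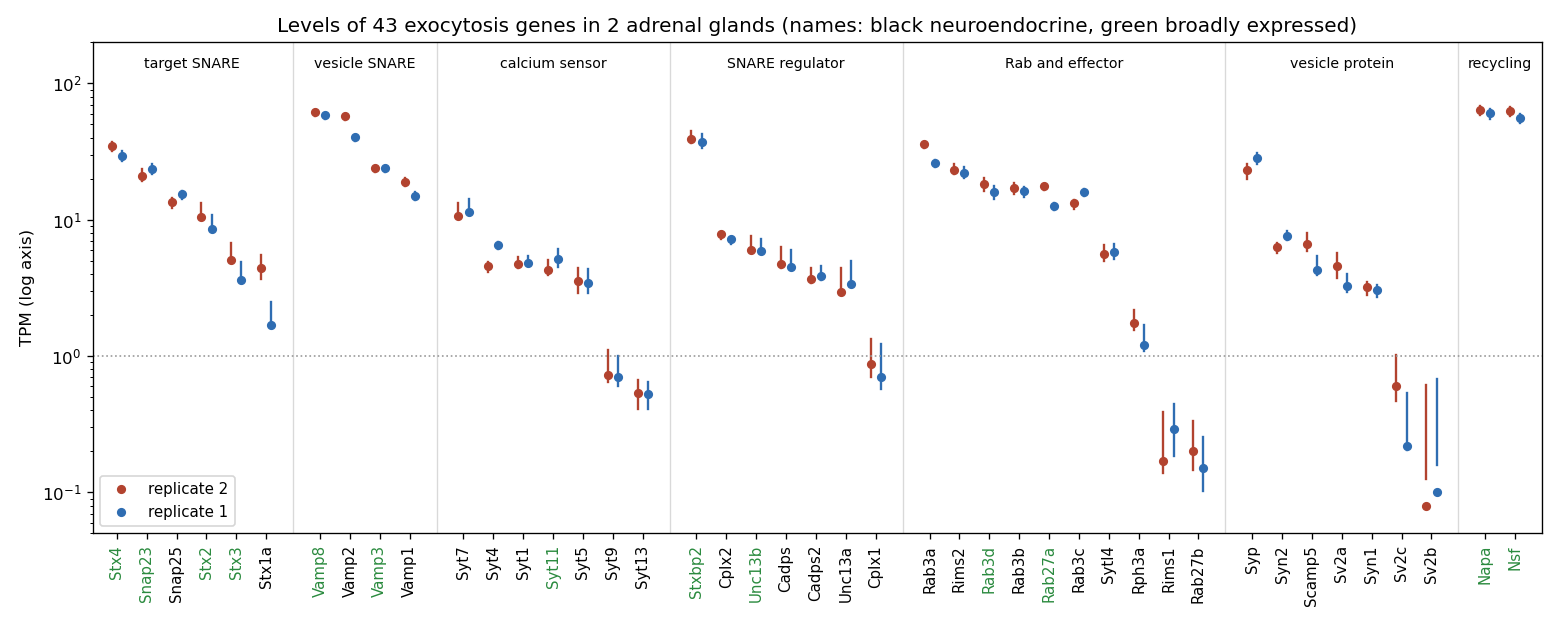
TPM of each member on a log axis, by role, with replicate 2 left of replicate 1; vertical lines are the deposited intervals of 1 library, and the dotted line is 1 TPM. The recycling proteins Napa and Nsf and the vesicle SNARE Vamp8 stand above 55 TPM in both animals, and 7 neuroendocrine members lie below 1 TPM.

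Among the target SNAREs, the broadly expressed members led. Snap25 (mm10 chromosome 2, 136713453 to 136782428), the SNARE cleaved by botulinum toxin A, stood at 13.5 TPM in replicate 2 and 15.4 in replicate 1. Its paralog Snap23 (chromosome 2, 120567671 to 120601255), used in most non-neuronal cells, stood at 20.9 TPM in replicate 2 and 23.4 in replicate 1. Snap25 was below Snap23 in both animals with intervals that did not overlap, and it held 39.4% of the summed level of the pair in replicate 2 and 39.8% in replicate 1. The log2 ratio of Snap25 to Snap23 was -0.61 ± 0.02 (SD, n = 2). It came to -0.23 ± 0.06 when only protein-coding transcripts were summed. Transcripts outside the coding class made up 28.1% of Snap23 in replicate 2 and 21.5% in replicate 1.

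Stx1a (chromosome 5, 135023482 to 135051100), the syntaxin of synaptic and chromaffin vesicle fusion, was the lowest target SNARE among the members. It stood at 4.40 TPM in replicate 2 and 1.68 in replicate 1, from 234 and 134 expected counts. Stx2 stood at 10.5 TPM in replicate 2 and 8.59 in replicate 1, and Stx3, a syntaxin of apical membranes, at 5.11 TPM in replicate 2 and 3.59 in replicate 1. Stx4 (chromosome 7, 127824294 to 127849019), the plasma membrane syntaxin best known from insulin-driven glucose transporter delivery, was the highest target SNARE among the members, with 34.7 TPM in replicate 2 and 29.2 in replicate 1. Stx1a lay below Stx2 and Stx4 in both animals beyond the deposited intervals, while its interval overlapped that of Stx3 in at least 1 animal. It held 8.05% of the summed level of the 4 syntaxins in replicate 2 and 3.90% in replicate 1, with a log2 ratio to the other 3 of -4.01 ± 0.75. That ratio sets 1 gene against the sum of 3 and is in that sense not a comparison of equals. Little of the level of Stx1a was annotated as coding by alignment. Transcripts outside the protein-coding class held 76.6% of the TPM of Stx1a in replicate 2 and 76.2% in replicate 1, led by Stx1a-204, a predicted target of nonsense-mediated decay. The index-based table gave Stx1a-204 only 2.81% in replicate 2 and 16.1% in replicate 1, so the split of Stx1a among transcripts is uncertain. The coding transcripts together came to 1.03 TPM in replicate 2 and 0.40 in replicate 1 by alignment. By the index, the coding Stx1a-201 held 13.85% of the gene in replicate 2 and 25.45% in replicate 1. The coding Stx1a-206 held 18.14% in replicate 2 and 16.27% in replicate 1 there.

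The vesicle SNAREs of both classes were abundant. Vamp2 (chromosome 11, 69088490 to 69092384), the main vesicle SNARE of synaptic vesicles and chromaffin granules, was the highest neuroendocrine member of all, at 57.6 TPM in replicate 2 and 40.6 in replicate 1. Vamp1, its close paralog, stood at 19.0 TPM in replicate 2 and 14.9 in replicate 1. Both were higher in replicate 2, with intervals that did not overlap. Vamp8 (chromosome 6, 72385223 to 72390703), known from late endosomes and granules of exocrine and blood cells, stood at 61.7 TPM in replicate 2 and 58.3 in replicate 1. Vamp3, the VAMP of recycling endosomes, stood at 23.8 TPM in replicate 2 and 23.9 in replicate 1. Vamp2 exceeded Vamp3 in both animals, whereas Vamp1 lay below Vamp3 and Vamp8, all beyond the intervals. The log2 ratio of the neuroendocrine to the broadly expressed VAMP genes was -0.36 ± 0.29, the closest to 0 of the 7 families over all transcripts. On coding transcripts alone it was -0.67, further from 0 than the -0.23 of SNAP-25, and on expected counts not divided by length it turned to 0.46.

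Among the synaptotagmins of the list, Syt7 and not Syt1 was the highest. Syt7 (chromosome 19, 10389090 to 10453180), a calcium sensor of high affinity that acts with Syt1 in chromaffin cells, stood at 10.7 TPM in replicate 2 and 11.3 in replicate 1. Syt1 (chromosome 10, 108497650 to 109010982), the fast calcium sensor, stood at 4.74 TPM in replicate 2 and 4.83 in replicate 1. Syt4, a synaptotagmin with little calcium binding, stood at 4.59 TPM in replicate 2 and 6.58 in replicate 1, and its intervals did not overlap. It was thus lower in replicate 2, while Syt1 and Syt7 were close in the animals. Syt5 stood at 3.54 TPM in replicate 2 and 3.46 in replicate 1. Syt9 stayed below 1 TPM, with 0.73 TPM in replicate 2 and 0.70 in replicate 1, as did Syt13, with 0.54 TPM in replicate 2 and 0.53 in replicate 1. These lowest members of the family came from a mean of 89.5 counts for Syt9 and 70.0 for Syt13. Syt11, the broadly expressed relative of Syt4, stood at 4.27 TPM in replicate 2 and 5.17 in replicate 1. Of the 6 neuroendocrine synaptotagmins, Syt7 was above Syt11 in both animals, Syt9 and Syt13 were below it, and the intervals of Syt1, Syt4 and Syt5 overlapped that of Syt11 in at least 1 animal. The family log2 ratio of 2.45 ± 0.09 sums 6 genes against 1 and is in that sense not a comparison of equals. Syt12, which is not a member, was the highest synaptotagmin measured, at 29.5 TPM in replicate 2 and 27.9 in replicate 1.

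Among the SNARE regulators a broadly expressed member was the highest. Stxbp2 (chromosome 8, 3630955 to 3643644), or Munc18-2, the syntaxin partner of epithelial and immune cells, stood at 38.9 TPM in replicate 2 and 36.9 in replicate 1. Of the priming factors, Unc13a stood at 2.97 TPM in replicate 2 and 3.39 in replicate 1, and its broadly expressed paralog Unc13b at 6.05 TPM in replicate 2 and 5.91 in replicate 1. Unc13a was below Unc13b in both animals beyond the intervals, with a log2 ratio of -0.89 ± 0.15. Cadps, the CAPS protein that primes dense-core granules, stood at 4.71 TPM in replicate 2 and 4.53 in replicate 1. Cadps2 stood at 3.65 TPM in replicate 2 and 3.86 in replicate 1, so the CAPS paralogs were at similar levels. Complexins, which clamp and support SNARE complexes, were unequal. Cplx2, the complexin of chromaffin cells, stood at 7.84 TPM in replicate 2 and 7.17 in replicate 1, and Cplx1 at 0.87 TPM in replicate 2 and 0.70 in replicate 1.

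The Rab3 family was led by a neuroendocrine member and the Rab27 pair by the broadly expressed one. Rab3a (chromosome 8, 70754679 to 70758677), the Rab of synaptic vesicles and chromaffin granules, stood at 35.8 TPM in replicate 2 and 26.2 in replicate 1, above Rab3d in both animals beyond the intervals. Rab3b stood at 17.1 TPM in replicate 2 and 16.2 in replicate 1. Rab3c stood at 13.2 TPM in replicate 2 and 16.1 in replicate 1. Rab3a was higher and Rab3c lower in replicate 2, both with intervals apart. Rab3d, the form of exocrine granules, stood at 18.4 TPM in replicate 2 and 15.9 in replicate 1. The intervals of Rab3b and Rab3c overlapped those of Rab3d in at least 1 animal, so all 4 Rab3 genes were expressed and Rab3a led. The 3 neuroendocrine Rab3 genes held 78.2% of the family in replicate 2 and 78.6% in replicate 1, a log2 ratio of 1.86 ± 0.02, which sums 3 genes against 1, and only Rab3a of the 3 exceeded Rab3d beyond the intervals in both animals. In the Rab27 pair, Rab27b stood at 0.20 TPM in replicate 2 and 0.15 in replicate 1, from 28 and 19 expected counts. Rab27a (chromosome 9, 73044854 to 73097629), the Rab of melanosomes and granule docking, stood at 17.6 TPM in replicate 2 and 12.7 in replicate 1. The Rab27 log2 ratio of -5.78 ± 0.15 was the most extreme of the 7 families. Its size depends on the 0.1 TPM added to each sum, with -6.43 without it and -3.76 with 1 TPM added, where the syntaxin value was -3.62. The syntaxin ratio sets 1 gene against 3, whereas the Rab27 ratio sets 1 against 1.

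**Figure D2:**
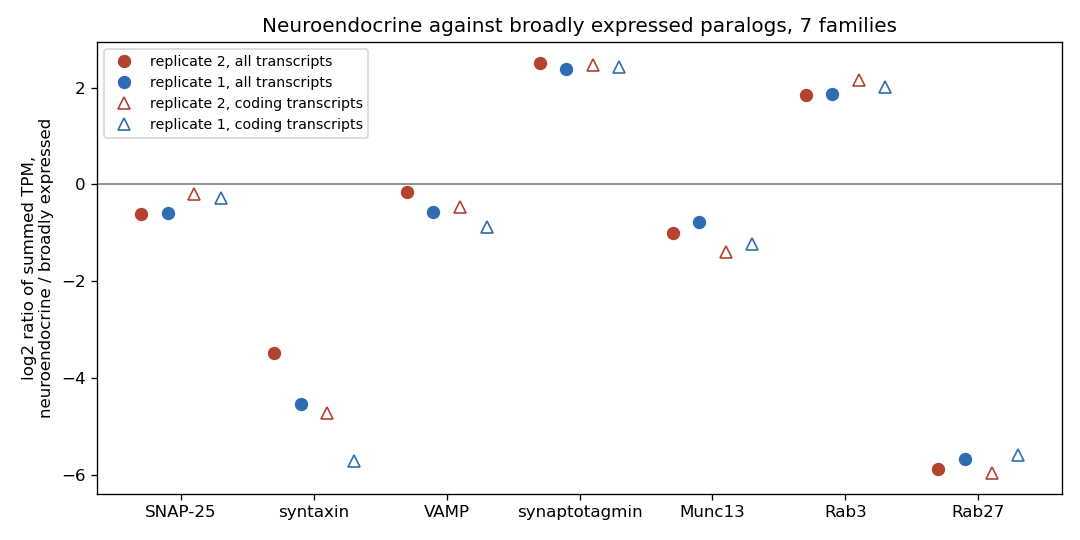
Log2 ratio of the summed TPM of neuroendocrine over broadly expressed paralogs in 7 families, with replicate 2 left of replicate 1; filled points use all transcripts and triangles protein-coding transcripts. The ratio is above 0 in the synaptotagmin and Rab3 families and below 0 in the other 5, in both animals. Numbers of genes are unequal for synaptotagmins (6 against 1), Rab3 (3 against 1) and syntaxins (1 against 3).

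Of 19 pairs of a neuroendocrine and a broadly expressed paralog, the neuroendocrine gene was higher in both animals beyond the intervals in 3 and lower in 9. In the other 7 the intervals overlapped in at least 1 animal. Stx1a was below Stx3, Vamp2 below Vamp8 and Syt5 below Syt11 beyond the intervals in replicate 1 only, and Rab3c was below Rab3d in replicate 2 only. The 3 were Vamp2 over Vamp3, Syt7 over Syt11 and Rab3a over Rab3d. The class is less certain for Vamp2, Syt7 and Syt11 here, and for Vamp1, Syt11, Unc13b and Rab27b among the 9 lower pairs.

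Effectors of the Rab proteins differed widely. Rims2 (chromosome 15, 39198261 to 39684372), which links Rab3 to Munc13 and calcium channels, stood at 23.2 TPM in replicate 2 and 22.1 in replicate 1. Of this, Rims2-207, of 458 bases, held 19.6% in replicate 2 and 29.3% in replicate 1, from 54 and 90 counts. The index-based table gave Rims2 16.7 TPM in replicate 2 and 13.4 in replicate 1, the lowest share of the alignment-based level among the members. Rims1, the form best known from brain synapses, stood at 0.17 TPM in replicate 2 and 0.29 in replicate 1. Rims4, a short RIM protein and not a member, was higher than both, at 55.5 TPM in replicate 2 and 58.2 in replicate 1. Sytl4, or granuphilin, which docks granules through Rab27, stood at 5.65 TPM in replicate 2 and 5.78 in replicate 1.

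Of the vesicle proteins among the members, Syp (chromosome X, 7638471 to 7653256), synaptophysin, was the highest, at 23.0 TPM in replicate 2 and 28.6 in replicate 1. Its relative Sypl, which is not a member, was higher, at 37.4 TPM in replicate 2 and 40.5 in replicate 1. Syn2, a synapsin, stood at 6.32 TPM in replicate 2 and 7.63 in replicate 1, above Syn1. It was lower in replicate 2, with intervals apart, and Syp was lower with intervals that overlapped. In the SV2 family of vesicle glycoproteins, Sv2a stood at 4.58 TPM in replicate 2 and 3.25 in replicate 1. Sv2c stood at 0.60 TPM in replicate 2 and 0.22 in replicate 1. Sv2b stood at 0.08 TPM in replicate 2 and 0.10 in replicate 1, below its own deposited interval in each library, so its level is uncertain. The recycling proteins were near the top of the list by alignment. Napa was the highest member in both animals, and Nsf lay below Vamp8 in replicate 1. Nsf (chromosome 11, 103821782 to 103954056), the ATPase that takes SNARE complexes apart, stood at 63.3 TPM in replicate 2 and 55.7 in replicate 1. Napa, alpha-SNAP, its adaptor, stood at 63.9 TPM in replicate 2 and 60.5 in replicate 1.

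Genes of the pathway outside the members were counted from a list of 77, all of which were found. Of these, 62 had at least 1 TPM in each animal, and 34 had at least 10 TPM. The endosomal syntaxin Stx7 stood at 53.9 TPM in replicate 2 and 60.4 in replicate 1, Snap47 at 42.4 TPM in replicate 2 and 38.6 in replicate 1, and the cysteine string protein Dnajc5 at 39.2 TPM in replicate 2 and 36.8 in replicate 1. Syt6, Syt8, Cplx4 and Stx19 were listed at 0 in the alignment-based table of both libraries. A count of 3, taken as the limit of detection, corresponds to 0.0874 CPM in replicate 2 and 0.0742 CPM in replicate 1, for counting error only.

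No member differed between the animals by the criterion used, which asked for a ratio of 2-fold or larger on TMM-scaled counts, at least 100 expected counts on average, and separate deposited TPM intervals. Of all 12645 genes with such counts 1.2% met it, 0.506% as higher and 0.696% as lower in replicate 2. All log2 ratios are replicate 2 over replicate 1, and with 1 library on each side they have no replicate check. The median over the 30 neuroendocrine members was -0.03, with 17 below 0 and a range from -0.61 to 0.98. The median over the 13 broadly expressed members was -0.02, with 7 below 0 and a range from -0.26 to 0.43. Over 17751 genes with a mean count of 10 or more the median was -0.01, and 51.0% lay below 0, so both classes were close to the background. All 10 chromaffin markers lay below 0, with a median of -0.24, and all 4 adipocyte markers did so with a median of -1.06 and a summed level of 445 TPM in replicate 2 and 850 in replicate 1. Of the neuron markers 7 of 8 with enough counts lay below 0, with a median of -0.47. The median was -0.67 for Schwann and sustentacular markers, with 3 of 5 below 0. Among them S100b was lower in replicate 2, at -1.46, and met the criterion. Mbp was higher, at 0.30, with intervals apart, and did not meet it. The adipocyte markers Adipoq, Fabp4 and Ucp1 also met it as lower, where 0.696% of all genes did. No other listed marker met it. Platelet markers had a median of -1.10, with 2 of 3 below 0, from mean counts of 10.5 to 46.5. Cortex markers had a median of 0.03, with 3 of 7 below 0. For macrophage and mast cell markers the median was -0.03, with 4 of 5 below 0. The part of these cell types in the members' ratios was not tested. None of the 61 other pathway genes with at least 100 counts met the criterion. Of 71 with a mean count of 10 or more, 32 lay below 0, and their median was 0.04.

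The members furthest apart were Stx1a and Sv2c. Stx1a had a log2 ratio of 0.95, just under the limit, with intervals that did not overlap, and on TPM as deposited the value was 1.34 and the criterion was met, where 1.23% of all genes met it. With scaling to total counts Stx1a met it as well, where 1.16% of all genes did. At 1.5-fold Stx1a and Syt4 met it, where 5.01% of all genes did. Coding transcripts of Stx1a had 0.48 and its other transcripts 1.06. Sv2c had 0.98 from a mean count of 92, with intervals that overlapped. Of the 36 members averaging at least 100 counts, 9 had intervals apart, where 27.4% of all such genes did. The 6 higher in replicate 2 were Stx1a, Vamp1, Vamp2, Rab3a, Rab27a and Scamp5, where 18.1% of all genes were higher, and the 3 lower were Syt4, Syn2 and Rab3c, where 9.31% were lower. The share among the members was thus close to that of all genes. Syt4 had the lowest log2 ratio, -0.61, followed by Syn2 with -0.46 and Rab3c with -0.41.

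**Figure D3:**
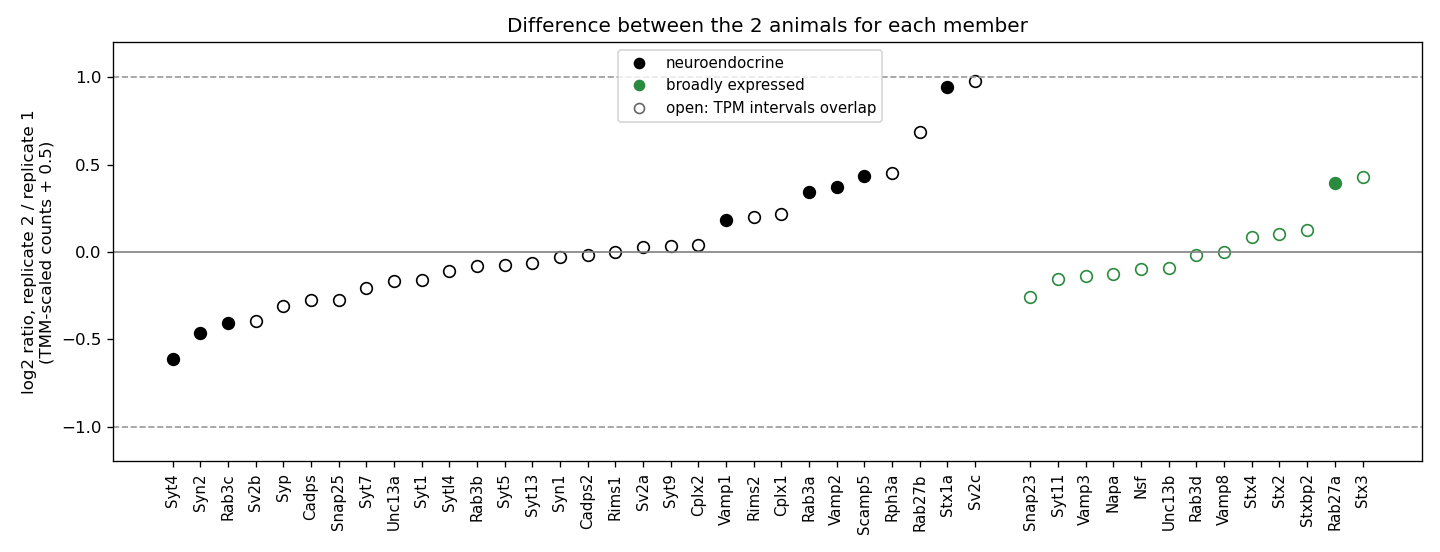
Log2 ratio of replicate 2 over replicate 1 for each member from TMM-scaled counts with 0.5 added; filled points have deposited TPM intervals that did not overlap, and dashed lines mark a 2-fold difference. All 43 members lie between the lines, from -0.61 for Syt4 to 0.98 for Sv2c.

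Much of the signal of several members came from transcripts that are not annotated as coding. Over all members, retained-intron transcripts held 13.3% of TPM in replicate 2 and 10.9% in replicate 1, and protein-coding transcripts 80.1% in replicate 2 and 82.1% in replicate 1. The share outside the coding class had a median of 7.28% in replicate 2 and 3.84% in replicate 1 over the neuroendocrine members. Over the broadly expressed members it was 20.8% in replicate 2 and 13.8% in replicate 1, and over protein-coding genes at 1 TPM or more 9.22% in replicate 2 and 6.88% in replicate 1. Napa had 42.7% outside the coding class in replicate 2 and 35.6% in replicate 1, Stx4 46.3% in replicate 2 and 41.9% in replicate 1, and Stxbp2 39.1% in replicate 2 and 43.9% in replicate 1. Between the animals, the transcripts outside the coding class were higher in replicate 2 for 20 of 25 members with a mean of 10 or more such counts, with a median log2 ratio of 0.45. Over 8270 protein-coding genes 68.6% were higher, with a median of 0.31. Coding transcripts were lower in replicate 2 for 24 of 43 members, with a median of -0.03, where 58.2% of protein-coding genes were lower, with a median of -0.05.

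**Figure D4:**
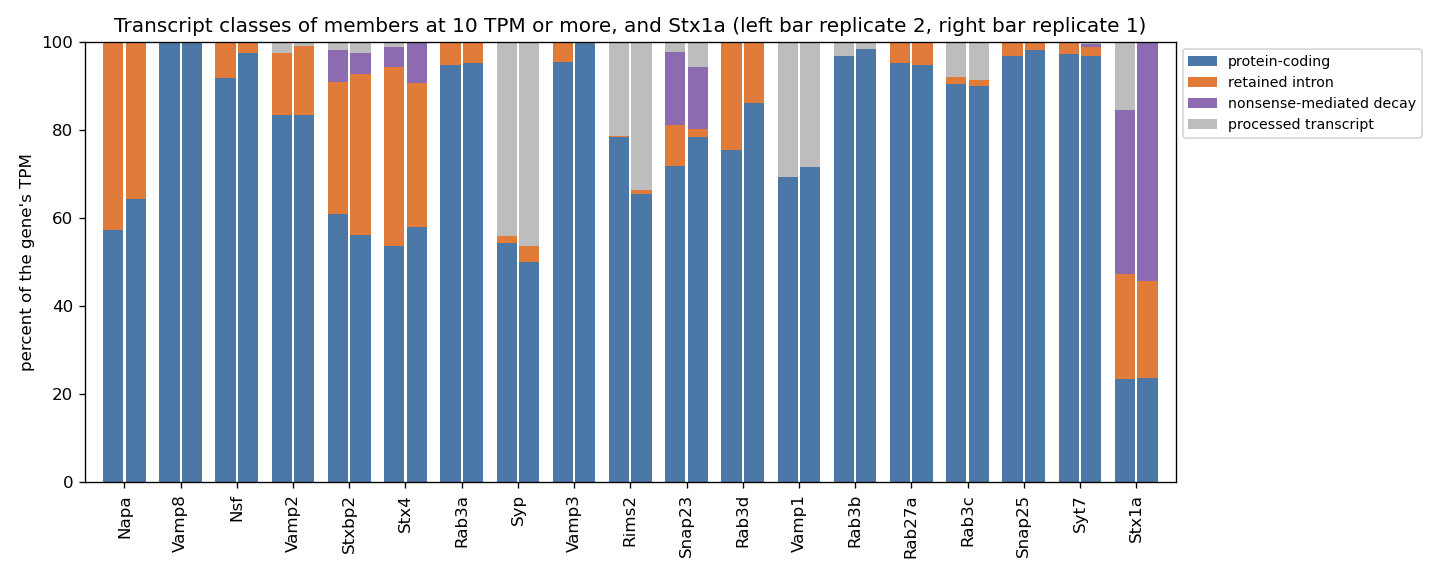
Percent of each gene's TPM in 4 annotated transcript classes for the 18 members at 10 TPM or more in both animals and for Stx1a, with replicate 2 left of replicate 1. By alignment, transcripts outside the coding class hold 76.6% of Stx1a in replicate 2 and 76.2% in replicate 1. Vamp8 has no annotated transcript outside that class.

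Short annotated transcripts raised some levels. Nsf-209, of 278 bases, took 134 expected counts in replicate 2 and 121 in replicate 1, yet 22.8 TPM in replicate 2 and 17.5 in replicate 1. The full-length Nsf-202 took 4269 counts for 35.2 TPM in replicate 2 and 5254 counts for 36.8 TPM in replicate 1. The index-based table put Nsf-209 at 0 and the whole gene at a mean of 40.1 TPM, against 59.5 TPM by alignment, so the place of Nsf near the top of the list depends on the table. Syp was split differently by the tables as well. The short Syp-206 held 44.1% of the gene in replicate 2 and 46.4% in replicate 1 by alignment, while by the index Syp-202 held 51.5% in replicate 2 and 57.4% in replicate 1. The total for Syp was close in both, at 21.5 TPM in replicate 2 and 27.7 in replicate 1 by the index. Over the 43 members the index-based level was between 0.666 and 1.36 times the alignment-based level, with a median of 0.861.

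The main transcript was mostly the same in both animals. It was so for 33 of 34 members at 1 TPM or more with several annotated transcripts, where 88.1% of 11285 such genes kept theirs. The exception was Unc13a, with Unc13a-201 highest in replicate 2 and Unc13a-208 in replicate 1. By the index 28 of 34 kept theirs, where 85.7% of 11213 genes did, so the members' share was below that of all genes by the index and above it by alignment. There Snap25, Stx1a, Cadps2, Rph3a and Napa joined the exceptions. Syt7-202 led Syt7 with 55.1% in replicate 2 and 56.2% in replicate 1, and Rims2-204 led Rims2 with 63.6% in replicate 2 and 54.6% in replicate 1.

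Neuroendocrine members were longer genes than broadly expressed ones. Their median span was 62.3 kb, against 24.7 kb for broadly expressed members and 25.0 kb for protein-coding genes at 1 TPM or more. The median number of annotated transcripts was 5 for the neuroendocrine and 8 for the broadly expressed members. Exons of 11 members share bases with another gene, in 10 cases on the opposite strand. The labels name a library kit that keeps strand, and whether the counting took strand into account is not stated there. The largest overlap was between Syp and the antisense gene Gm14703, over 16.8% of the exon bases of Syp, and Gm14703 had 0.02 TPM in replicate 2 and 0.06 in replicate 1. Unc13a shares 3.92% of its exon bases with Colgalt1, which had 25.8 TPM in replicate 2 and 22.4 in replicate 1, so the level of Unc13a is the more open to this uncertainty. Expected counts as deposited were exactly whole, with no tolerance, in both libraries for 41 members and not for Rab27a and Syt11.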

How the data were processed

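Total RNA libraries of 2 glands were used, each with an alignment-based gene table and transcript table and an index-based transcript table. The assembly was mm10 with annotation M21, per the file headers and notes deposited with the samples, and no program is stated there. The assembly derives from C57BL/6J, so reads of CAST alleles carry mismatches to it. Expected counts were deposited as estimates per feature, not normalized. TPM was scaled by the authors over all features, and FPKM was deposited relative to effective length and depth. The bounds of TPM (a signal on the TPM scale) and the percent of a gene held by each transcript are columns deposited by the authors. Effective length is the length minus 100 bases in the alignment-based tables and minus 248 in the index-based ones.

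Expected counts of 55536 genes were rounded and scaled by TMM in edgeR 4.0.16 (R 4.3.3); DESeq2 1.42.0 size factors were an alternative. Ratios used a pseudocount of 0.5 counts, and family ratios 0.1 TPM. The scaling step was checked on simulated data. Other steps used Python 3.11.15, numpy 2.4.6, pandas 2.3.3 and matplotlib 3.10.9. All members are named; values per animal were set for members at 10 TPM or more, in the 7 families, or meeting the criterion between animals, with other members by range or value, and they are printed for all 43. Other pathway genes at 10 TPM or more may be named. Pathway genes at 0, overlapping genes outside the lists and the transcripts of Stx1a and Unc13a fall outside these limits and were chosen after their values were seen. The members, classes and lists were chosen with earlier results of these data known. The split of transcripts by coding class was added after the data were seen. Some items of the pathway list are not reported here.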

Additional observations from a re-analysis of the deposited data

How the results depend on the processing

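Of 107 alternatives over 14 results, 77 left the value within its tolerance. For class medians and family ratios the tolerance was the SD over the animals. A value from either animal alone always lies within that SD. A minimum mean count of 10 left out no member. Some of the 77 were therefore fixed in advance, and their number does not measure stability. The limit of 5 TPM left 23 of the 43 members, against 36 at 1 TPM. Medians of neuroendocrine and broadly expressed members were 3.90 and 20.3 TPM in the index-based table, and 12.7 and 62.2 TPM when rescaled over nuclear protein-coding genes. The direction of the family ratios held in 55 of 56 alternatives. The exception was the VAMP family on expected counts, at 0.46, an alternative that differs in not dividing by length. FPKM and another pseudocount cannot turn the sign within a library, and the values of each animal are already part of the mean. Only the index-based table, expected counts and coding transcripts were separate checks of direction. These keep the sums of unequal numbers of genes in the synaptotagmin, Rab3 and syntaxin families. They do not check how far the sign there rests on those numbers. On the log2 scale, the index-based table gave -1.11 for SNAP-25, 2.70 for synaptotagmins, 2.11 for Rab3 and -5.20 for Rab27. Expected counts gave -0.93 for SNAP-25 and -5.99 for Rab27. A pseudocount of 1 TPM gave -0.58 for SNAP-25, 2.25 for synaptotagmins, 1.80 for Rab3 and -3.76 for Rab27, and none gave -6.43 for Rab27. Coding transcripts alone, an alternative chosen after seeing the data, gave -0.23 for SNAP-25, -5.23 for syntaxins, -0.67 for VAMP, -1.32 for Munc13 and 2.08 for Rab3. Apart from the VAMP sign, the cause of these changes was not tested. Leaving out each animal in turn left 36 members at 1 TPM and moved the syntaxin ratio most among the families, from -4.54 to -3.48.

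Between the animals, Stx1a alone met the criterion on TPM as deposited and on scaling to total expected counts (1 member each, where 1.23% and 1.16% of all genes did), and Stx1a and Syt4 at 1.5-fold (2 members, where 5.01% did). TPM as deposited moved the median of all genes by 0.10 from TMM. The class medians turned with the scaling, to 0.0541 and 0.0812 on TPM and to 0.0672 and 0.0769 on total counts for neuroendocrine and broadly expressed members, and that of broadly expressed members to 0.000656 without the members whose class is less certain (Vamp1, Vamp2, Syt7, Syt11, Cadps2, Rab27b and Unc13b). No paired analysis was possible because there is only 1 group. Levels of members under 30 counts, such as Rab27b, Rims1 and Sv2b, are limited by depth.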
